A study of Solanum lycopersicum with 9 samples.

Results

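The 2 antisense lines of this tomato study, AS17 and AS5, were set directly against each other: 3 arrays of line AS17 against 3 arrays of line AS5, chosen by the line named in the labels. These are 6 of the 9 arrays of the series. All 9 came from red ripe fruit mesocarp of Solanum lycopersicum cv Money Maker, grown in a greenhouse with 16 hours of light. AS17 and AS5 plants both carried an antisense construct against Asr1, and the remaining 3 arrays came from wild-type (WT) plants, which are shown for orientation and were left out of the fit between the lines, except in 1 alternative given at the end. Each array held a pool of 2 fruit mesocarps, and the 3 pools of a line came from 3 different plants. Each line is a single antisense line, so a difference between them describes these 2 lines. The labels name no promoter for the construct.

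Asr1 belongs to a small plant gene family named for abscisic acid (ABA), stress and ripening, whose products bind DNA and protect proteins under water loss. In tomato fruit, ABA is made from carotenoid precursors and its level helps to set the start of ripening. Antisense RNA lowers the transcript it matches, and independent lines of one construct often differ in how far they do so, because the construct sits at another place in the genome. The comparison of AS17 with AS5 therefore asks how far fruit of both lines had the same transcript levels. No probe set in the annotation used was named Asr1 or another family member, and the transcript that the construct targets was not analysed here, so neither line's silencing was checked on these arrays.

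The values were log2 expression values, so a difference of 1 is a 2-fold difference in signal. A mean of pools cannot tell fewer cells of a type from less RNA per cell. The median array value was 5.26, 5.26 and 5.24 in AS17 pools 1, 2 and 3, and 5.29, 5.26 and 5.47 in AS5 pools 1, 2 and 3. AS5 pool 3 thus had the highest median of these arrays. The median standard deviation (SD) between pools was 0.221 in AS17, 0.186 in AS5 and 0.139 in WT. Gene names were at hand for 909 of 10038 probe sets, which stand for 802 genes.

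The pools did not sort by line. AS17 pool 2 differed from AS5 pool 1 by more than 1 log2 unit at 1.13% of probe sets, and from AS17 pool 1 at 6.83%. AS5 pool 1 differed from AS5 pool 2 at 0.767% of probe sets, and from AS5 pool 3 at 7.18%. AS17 pool 1 and AS5 pool 3 were the closest match that either of them had among the 6 arrays, with 2.24% of probe sets over 1 log2 unit apart. On the first principal component, which held 50.8% of the variance over the 6 arrays, AS17 pools scored 28.3, -24.7 and -5.11, and AS5 pools scored -16.9, -13.8 and 32.3. The probes at the 3′ end of the gapdh control exceeded those at its 5′ end by 0.55, 1.04 and 1.01 log2 units in AS17 pools, and by 1.06, 0.939 and 0.619 in AS5 pools. AS5 pool 3 had the smallest such gap of its line for all 4 controls (gapdh, ubiquitin, actin and ef1a). AS17 pool 1 had the smallest of its line for gapdh and ubiquitin but not for ef1a (2.91, 3.32 and 2.79 in AS17 pools), and the largest for actin (1.08, 1.05 and 0.733). The part of RNA quality in the likeness of these pools was not tested. Differences that move by more than 1.5 times without both pools, or without any 1 pool, are marked below for the genes furthest apart.

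**Figure D1:**
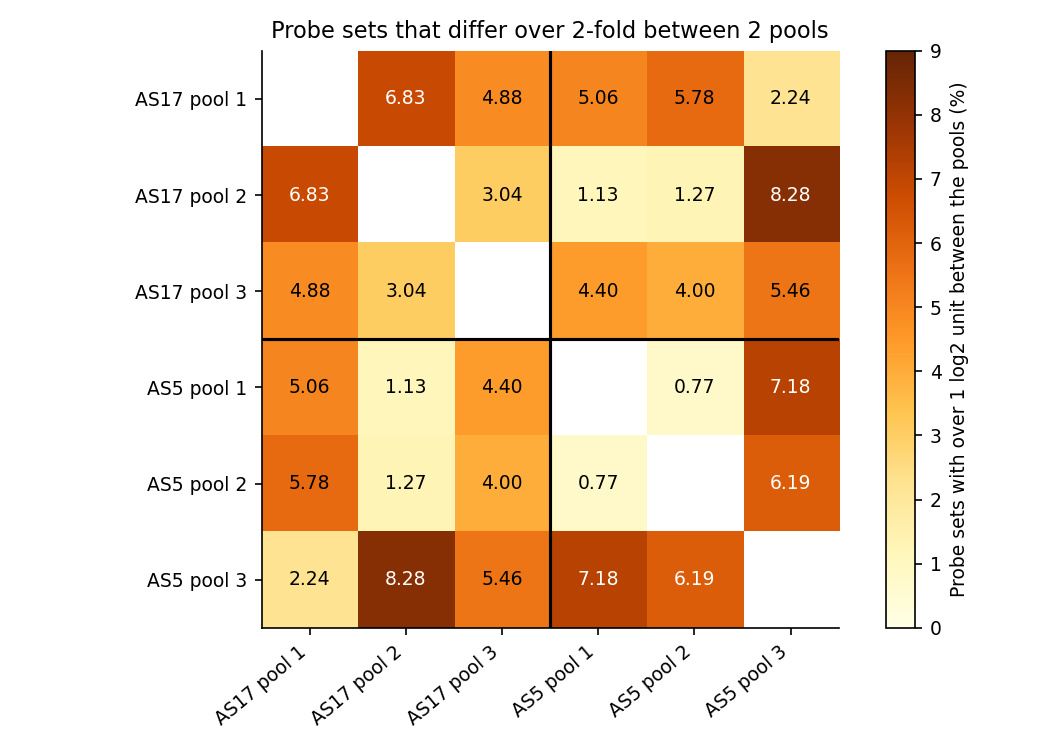
Percent of the 10038 probe sets that differ by more than 1 log2 unit between each pair of antisense pools, with AS17 pools above and left of AS5 pools and lines dividing the lines' blocks. The palest cells are AS5 pools 1 and 2 (0.767%, shown as 0.77), and AS17 pool 2 with AS5 pool 1 (1.13%), and the darkest is AS17 pool 2 with AS5 pool 3 (8.28%).

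No probe set passed the test between AS17 and AS5 fruit after correction for the number tested. With limma and Benjamini-Hochberg adjustment, 0 of 10038 probe sets (0.0%) passed at an adjusted p under 0.05, and the smallest adjusted p was 0.313. At an unadjusted p under 0.05, 398 probe sets (3.96%) stood out, 42 higher in AS17 (0.418%) and 356 lower in AS17 (3.55%). All AS17 pools lay above all AS5 pools at 124 probe sets (1.24%) and below all of them at 705 (7.02%), together 829 (8.26%). With 3 pools against 3, an exact two-sided permutation test of a single gene cannot give a p below 0.1, so the model across all probe sets carries the comparison. Because no gene passed, the genes below are given by their values, and none is called changed.

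The split toward lower values in AS17 depended on the scaling. The median difference over all probe sets was -0.05, and 60.9% of probe sets were lower in AS17. With each array centred on its own median, the unadjusted calls were 118 higher and 152 lower in AS17, and with quantile normalisation they were 89 higher and 194 lower. Without AS17 pool 1 and AS5 pool 3 they were 308 higher and 518 lower.

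**Figure D2:**
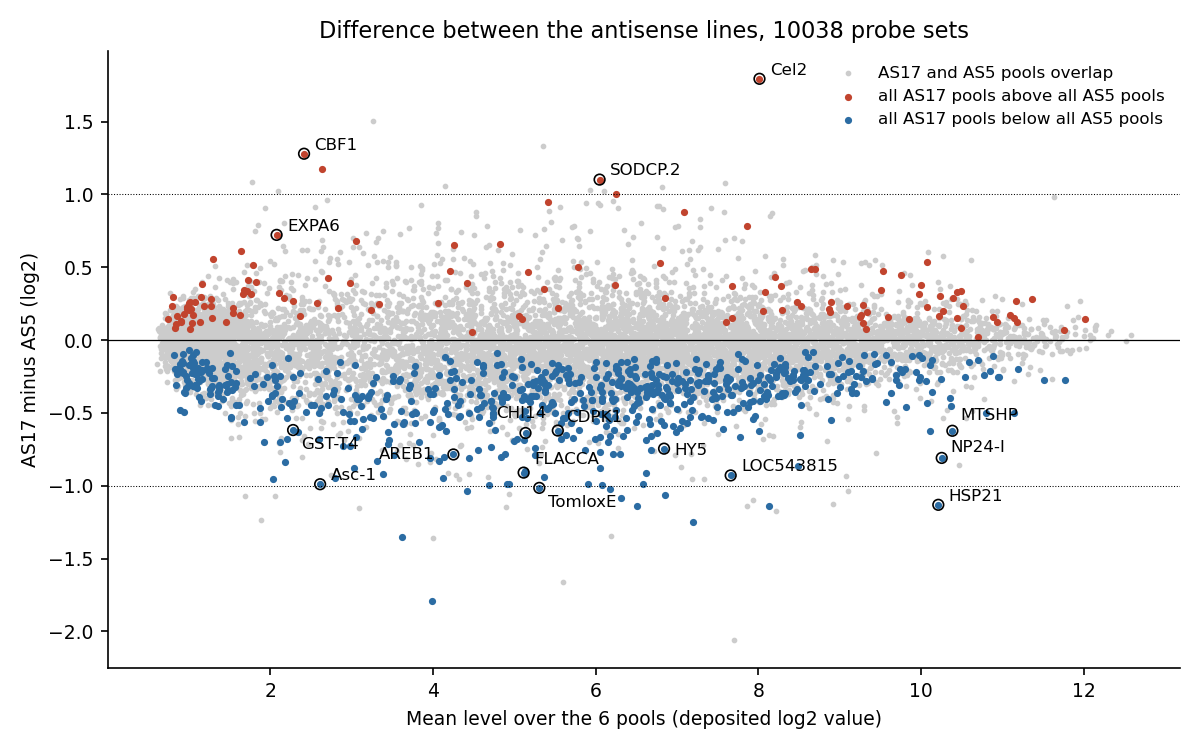
AS17 minus AS5 log2 difference (vertical) against the mean level over the 6 pools (horizontal) for 10038 probe sets, with dotted lines at a 2-fold difference. Red points are the 124 probe sets where all AS17 pools lay above all AS5 pools, and blue points the 705 where they lay below. Labelled circles mark the named genes furthest apart without overlap, at an unadjusted p under 0.05 and with the brighter line above background.

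The data bounded the difference for most genes. The 95% interval of the difference lay inside a 2-fold change in either direction for 8730 probe sets (87.0%) and for 626 of the 802 named genes (78.1%). These counts include probe sets without signal, as 1799 were at background on all 6 arrays. After a filter on dim probe sets, 6528 (83.9%) had such an interval. Over all probe sets the median interval was 0.855 log2 units wide. Mean differences beyond 1 log2 unit were measured at 14 probe sets higher in AS17 and 26 lower. Among 128 probe sets that passed in the mean of both lines against WT, 93 had an interval between the lines inside a 2-fold change. Of the 89 that were below WT, 24 were lower in AS17 at an unadjusted p under 0.05 and 5 higher, and in 26 all AS17 pools lay below all AS5 pools. Of the 39 that were above WT, 1 was higher in AS17 and 1 lower. Over all probe sets the shares were 3.55% lower, 0.418% higher and 7.02% without overlap below. That fit shares its antisense pools with the present comparison, so nothing is read from these counts.

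The brightest named genes with an interval inside 0.5 log2 units in either direction were abundant ripe-fruit transcripts, chosen by that rule. 2A11, a fruit-specific transcript, had levels of 12.61, 12.64 and 12.55 in AS17 and 12.56, 12.61 and 12.53 in AS5, with a difference of 0.03 and an interval from -0.23 to 0.30. PG2, the polygalacturonase that breaks down pectin in ripening walls, differed by 0.07 (-0.30 to 0.43). ADH2, an alcohol dehydrogenase of flavour volatile synthesis, differed by 0.06 (-0.20 to 0.32). SAHH, which recycles the product of methylation reactions, differed by 0.04 (-0.27 to 0.34). LEMT1 differed by 0.09 (-0.19 to 0.36), and the translation factor eIF-5A1 by 0.02 (-0.32 to 0.36). The lines overlapped for all 6.

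The regulators of ripening were also close, as most probe sets were. Of 10 ripening transcription factors, 0 stood out at an unadjusted p under 0.05 in either direction, beside 3.96% of all probe sets. In 9 of them the interval lay inside a 2-fold change, beside 87.0% of all probe sets and 78.1% of named genes. Their median difference was -0.12. RIN, the MADS-box factor without which fruit fail to ripen, was at 10.05, 9.99 and 9.59 in AS17 and 10.09, 10.06 and 9.91 in AS5. Its difference was -0.14, with an interval from -0.53 to 0.24. NOR, a NAC factor also needed for ripening, was at 8.11, 8.87 and 8.74 in AS17 and 8.38, 9.03 and 8.81 in AS5. The interval of NOR ran from -0.78 to 0.45, and its difference of -0.16 was 0.10 without AS17 pool 1 and AS5 pool 3. Psy1, the phytoene synthase that starts fruit carotenoid synthesis, differed by -0.05 (-0.35 to 0.25) at its brightest probe set. Another Psy1 probe set had 7.52, 4.64 and 4.33 in AS17 and 5.16, 5.02 and 6.90 in AS5, and its interval from -2.38 to 1.99 set no useful bound.

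In the ABA list, 3 genes had all AS17 pools below all AS5 pools. FLACCA, the sulfurase that activates the molybdenum cofactor of the last enzyme of ABA synthesis, had 4.88, 4.81 and 4.28 in AS17, against 5.47, 5.63 and 5.62 in AS5 and 6.05, 6.07 and 5.72 in WT. All AS17 pools lay below all AS5 pools, and AS5 lay below WT. The difference between the lines was -0.91 (95% interval -1.35 to -0.47, 1.88-fold, limma adjusted p = 0.999). AREB1, a bZIP factor that binds ABA response elements, had 4.07, 3.85 and 3.66 in AS17, against 4.66, 4.58 and 4.69 in AS5 and 4.42, 4.33 and 4.33 in WT. WT pools stood between the lines for AREB1, whose difference was -0.79 (-1.13 to -0.44). ZEP, the zeaxanthin epoxidase upstream of ABA, had 6.13, 5.99 and 5.79 in AS17 and 6.59, 6.47 and 6.43 in AS5, a difference of -0.53 (-0.85 to -0.20). Without AS17 pool 1 and AS5 pool 3 the differences of FLACCA, AREB1 and ZEP were -0.998, -0.866 and -0.637.

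Most other members of the ABA list overlapped between the lines, and 1 was at background in both. Of its 10 genes, 3 stood out lower in AS17 at an unadjusted p under 0.05 and 0 higher, beside 3.55% and 0.418% of all probe sets. In 3 genes all AS17 pools lay below all AS5 pools and in 1 above, beside 7.02% and 1.24% of all probe sets. The list median was -0.28, beside -0.05 over all probe sets. Without AS17 pool 3 that median was -0.12, and without AS5 pool 3 it was -0.18. NCED1, the dioxygenase that limits ABA synthesis, had 7.99, 7.79 and 7.55 in AS17 and 7.78, 7.80 and 7.52 in AS5. Its interval ran from -0.31 to 0.47. The aldehyde oxidases, which carry the cofactor that FLACCA activates, gave -0.32 for TAO2 (-0.81 to 0.17) and -0.28 for AO1 (-0.83 to 0.27). TAS14, a dehydrin that ABA induces, gave 0.54 with an interval from -0.51 to 1.59.

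All 9 heat shock genes had lower means in AS17 than in AS5 at the brightest probe set of each. Their median difference was -0.53, 3 stood out lower at an unadjusted p under 0.05 and 0 higher, and in 5 all AS17 pools lay below all AS5 pools. Over all probe sets 60.9% had lower means in AS17, 3.55% stood out lower and 7.02% lay below without overlap. ER-SHSP, a small heat shock protein of the endoplasmic reticulum, had 8.00, 7.07 and 4.95 in AS17, against 7.86, 8.38 and 9.96 in AS5 and 7.82, 7.03 and 7.45 in WT. Those pools overlapped, and the difference was -2.06 with an interval from -4.10 to -0.01. It was -1.19 without AS17 pool 3. HSP21, the small heat shock protein of plastids, had 9.03, 10.12 and 9.80 in AS17, against 10.36, 10.31 and 11.67 in AS5 and 10.26, 10.13 and 10.18 in WT. The lowest AS17 value was that of pool 1 and the highest AS5 value that of pool 3. The HSP21 difference of -1.13 (-2.17 to -0.09) was -0.38 without both pools and -0.69 without AS5 pool 3 alone.

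The mitochondrial MTSHP had 10.37, 10.33 and 9.52 in AS17 and 10.51, 10.66 and 10.93 in AS5, a difference of -0.62 (-1.24 to -0.01) that was -0.35 without AS17 pool 3. The chaperone Hsp90-1 had 9.96, 9.60 and 9.19 in AS17 and 10.03, 10.01 and 10.08 in AS5, a difference of -0.46 (-0.94 to 0.03) that was -0.26 without AS17 pool 3. Of the other members, HSP17.4 gave -0.85, vis1 -0.53, HSP17-6 -0.28, ER21 -0.25 and HSC80 -0.06, each with an interval that included 0. A second, dimmer probe set of ER21 gave 0.18, with an interval from -0.17 to 0.54. The sign of HSC80 turned when arrays were centred on their medians, to 0.03. Without AS17 pool 3, HSP17-6 was -0.14 and ER21 -0.13, and without AS5 pool 3 HSP17.4 was -0.47. The list median was -0.49 without AS17 pool 1 and AS5 pool 3, and -0.35 without AS17 pool 3.

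Most defence-related genes had lower means in AS17, and several varied widely between pools. Of 20 pathogenesis-related and wound genes, 17 had lower means in AS17, 3 stood out lower at an unadjusted p under 0.05 and 0 higher, and 7 were at background in both lines. The median was -0.43. Over all probe sets 60.9% had lower means in AS17 and 3.55% stood out lower. The list median was -0.13 without AS17 pool 2, -0.17 without AS5 pool 3, -0.71 without AS5 pool 1 and -0.26 without AS17 pool 1 and AS5 pool 3. NP24-I, an osmotin-like protein that accumulates in ripe fruit, had 10.13, 9.70 and 9.73 in AS17, against 10.67, 10.83 and 10.48 in AS5 and 12.03, 11.91 and 11.74 in WT. Its pools fell into 3 separate levels, lowest in AS17 and highest in WT, and the lines differed by -0.81 (-1.22 to -0.40). ER1, an ethylene-responsive gene, had 6.38, 4.22 and 3.72 in AS17, against 6.41, 6.69 and 6.19 in AS5 and 8.67, 9.76 and 8.67 in WT. AS17 pool 1 reached the AS5 level, so the lines overlapped, and the ER1 difference of -1.66 (-3.21 to -0.11) was -2.58 without AS17 pool 1 and AS5 pool 3.

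The chitinases, which cut fungal cell walls, showed both kinds of spread. CHI14 had 4.47, 4.98 and 5.01 in AS17, against 5.39, 5.81 and 5.17 in AS5 and 5.06, 4.37 and 4.18 in WT, a difference of -0.64 (-1.17 to -0.10). CHI3 had 8.76, 5.33 and 7.78 in AS17 and 6.91, 8.61 and 9.77 in AS5, and its interval ran from -3.57 to 1.29. CHI17 had an interval from -2.79 to 0.60. For CHI3 and CHI17 the pools of a line were further apart than the line means, so no difference was detectable.

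The largest difference toward AS17 among named genes was that of Cel2, an endoglucanase of the cell wall. It had 7.94, 8.91 and 9.89 in AS17, against 7.86, 6.98 and 6.51 in AS5 and 7.29, 7.14 and 6.78 in WT. The lowest AS17 pool lay just above the highest AS5 pool, and AS5 overlapped WT. Cel2 averaged 8.91 ± 0.97 in AS17 and 7.12 ± 0.68 in AS5 (SD, n = 3 each), a difference of 1.79 with an interval from 0.50 to 3.08 (3.47-fold, limma adjusted p = 0.999). It was 1.98 without AS17 pool 1 and AS5 pool 3. Of the whole cell wall list of 49 genes, 12 were at background in both lines, and the median was 0.07. At an unadjusted p under 0.05, 2 stood out higher and 0 lower, beside 0.418% and 3.55% of all probe sets.

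Of the 12 expansins, which loosen walls, 10 had higher means in AS17, and 4 were at background in both lines. Over all probe sets 3925 of 10038 had higher means in AS17, and 0.418% stood out higher at an unadjusted p under 0.05. The expansin median was 0.36, or 0.19 without AS5 pool 2. Among the expansins 1 stood out higher and 0 lower. That 1 gene was EXPA6, with 2.19, 2.52 and 2.60 in AS17, against 1.90, 1.68 and 1.57 in AS5 and 2.19, 2.63 and 2.58 in WT. AS5 was the line that stood below WT for EXPA6, whose difference was 0.72 (0.33 to 1.11). Its level was near background, with 2 of 3 AS5 pools above it, and a second probe set of EXPA6, at background in all pools of both lines, gave -0.06. The brighter expansins overlapped between lines. EXP1, the main ripening expansin, had 10.21, 11.24 and 11.24 in AS17 and 10.63, 10.10 and 10.30 in AS5, a difference of 0.55 (-0.19 to 1.29) that was 0.87 without AS17 pool 1 and AS5 pool 3. EXPA4 gave 0.88 (-0.24 to 2.01), EXPA3 0.68 (-0.17 to 1.53) and EXP5 0.50 (-0.28 to 1.27). Leaving out 1 pool moved each of them by over 1.5 times, EXPA4 to 1.37 without AS17 pool 2, EXPA3 to 1.04 without AS5 pool 3, and EXP5 to 0.21 without AS5 pool 2 and 0.27 without AS17 pool 1.

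**Figure D3:**
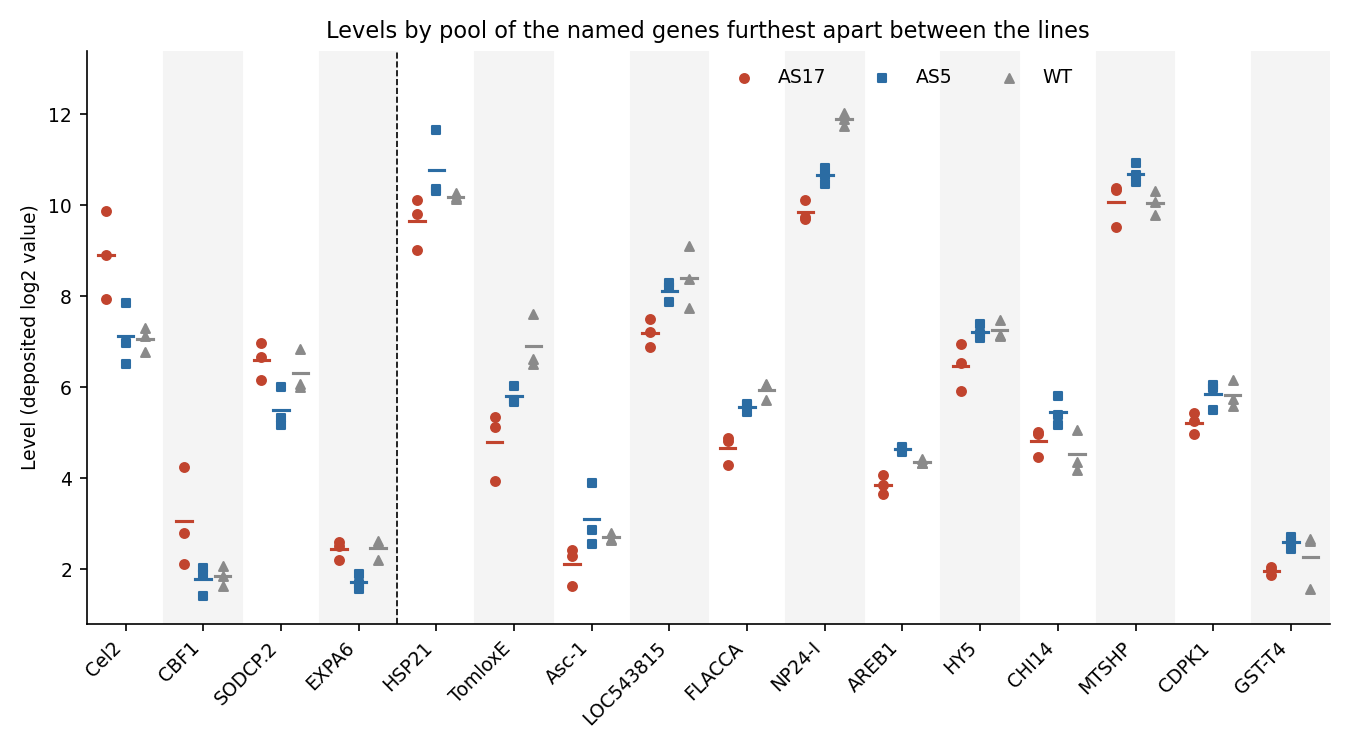
Deposited log2 level of 16 named genes in each pool, with AS17 (circles), AS5 (squares) and WT (triangles) side by side, short bars at the group means, and a dashed line between genes higher and lower in AS17. FLACCA, NP24-I and TomloxE are lowest in AS17, higher in AS5 and highest in WT, while Cel2 is high in AS17 and overlaps between AS5 and WT.

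Of 11 light signalling genes, 8 had lower means in AS17, beside 60.9% of all probe sets, 2 stood out lower at an unadjusted p under 0.05 and 0 higher, in 4 all AS17 pools lay below all AS5 pools, and the median was -0.28. Over all probe sets 3.55% stood out lower and 7.02% lay below without overlap, and without AS17 pool 3 the list median was -0.18. HY5, a bZIP factor that promotes light responses, had 5.91, 6.96 and 6.54 in AS17, against 7.38, 7.09 and 7.17 in AS5 and 7.13, 7.15 and 7.48 in WT. AS5 and WT overlapped, and the lines differed by -0.75 (-1.38 to -0.11). The HY5 difference was -0.49 without AS17 pool 1 and AS5 pool 3, and -0.47 without AS17 pool 1 alone. PHYA, a phytochrome photoreceptor, had 7.40, 6.85 and 6.86 in AS17, against 7.48, 7.49 and 7.73 in AS5, a difference of -0.53 (-0.98 to -0.08). CUL4 and DDB1, parts of a ubiquitin ligase that restrains light responses, gave -0.33 and -0.28, and the cryptochrome CRY2 gave -0.39, each with an interval that included 0. Without AS17 pool 3 they were -0.18, -0.15 and -0.21.

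Redox enzymes had differences on both sides of 0. Of 16 genes, 1 stood out higher and 2 lower at an unadjusted p under 0.05, beside 0.418% and 3.55% of all probe sets. The median was -0.09. SODCP.2, a plastid copper/zinc superoxide dismutase, had 6.16, 6.66 and 6.98 in AS17, against 5.33, 5.997 and 5.17 in AS5 and 6.02, 6.85 and 6.08 in WT. AS17 overlapped WT and AS5 was the lower line, with a difference of 1.102 (0.41 to 1.80). GST-T4, a glutathione S-transferase, had 2.05, 1.99 and 1.88 in AS17 and 2.70, 2.63 and 2.44 in AS5, a difference of -0.62 (-0.93 to -0.31) near background. CAT2, a catalase, gave -0.39 (-0.76 to -0.03).

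In the lipoxygenase list of 14 genes, 1 stood out lower and 0 higher, with a median of -0.07. TomloxE, a lipoxygenase, had 5.34, 5.12 and 3.94 in AS17, against 5.73, 6.04 and 5.68 in AS5 and 6.52, 7.61 and 6.62 in WT. Its pools separated into 3 levels, and the lines differed by -1.01 (-1.88 to -0.15). Without AS17 pool 3, its lowest pool, the difference was -0.58. loxC, the lipoxygenase of fruit volatiles, gave 0.75 with an interval from -0.31 to 1.81. The loxC difference was 0.42 without AS17 pool 3 and 1.25 without AS17 pool 1. Among 5 genes of phospholipase D and lipid signalling all means were lower in AS17, beside 60.9% of all probe sets, and the median was -0.32. PLDa1 alone stood out, at -0.34 (-0.63 to -0.04), and over all probe sets 3.55% stood out lower.

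Of 47 ethylene genes, 17 had higher and 30 lower means in AS17, and 5 were at background in both lines. At an unadjusted p under 0.05, 1 stood out higher and 2 lower. All AS17 pools lay above all AS5 pools in 1 gene and below them in 6. Over all probe sets 60.9% had lower means in AS17, 3.55% stood out lower and 7.02% lay below without overlap. The list median was -0.07, which turned to 0.02 with median centring. TCTR2, a kinase that restrains ethylene signalling, had 6.87, 6.71 and 6.54 in AS17 and 7.13, 7.16 and 7.12 in AS5, a difference of -0.43 (-0.75 to -0.12). The ethylene receptor ETR5 gave -0.36 (-0.66 to -0.07). ER5 gave 0.61 (0.10 to 1.13), with 1 AS17 pool and 0 AS5 pools above background, and 0.31 without AS17 pool 1 and AS5 pool 3. ACO5, of the family that makes ethylene in its last step, had 10.56, 6.25 and 6.08 in AS17 and 7.31, 8.61 and 10.49 in AS5. AS17 pool 1 and AS5 pool 3 were the high pools of ACO5, and its interval from -4.37 to 2.03 set no useful bound. Its difference of -1.17 was -1.79 without both, and ran from -2.64 without AS17 pool 1 to -0.33 without AS5 pool 3.

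The 4 CBF and DREB factors act in cold and drought responses. At an unadjusted p under 0.05, 1 stood out higher and 0 lower, beside 0.418% and 3.55% of all probe sets. CBF1 had 2.79, 4.26 and 2.12 in AS17, against 2.02, 1.89 and 1.42 in AS5 and 2.06, 1.64 and 1.86 in WT. AS17 pool 2 was far above the other pools, and 2 of 3 AS5 pools were above background. The CBF1 difference was 1.28 (0.04 to 2.52), and 0.68 without AS17 pool 2. DREB1 had 6.38, 4.40 and 3.85 in AS17 and 5.77, 5.36 and 6.04 in AS5, and its interval ran from -2.33 to 0.64. The DREB1 difference of -0.84 was -1.44 without AS17 pool 1 and AS5 pool 3, and -0.33 without AS17 pool 3.

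Of 25 sucrose and hexose genes, 0 stood out in either direction at an unadjusted p under 0.05, beside 3.96% of all probe sets. The median was -0.07. AI, the vacuolar acid invertase that splits sucrose in ripe fruit, had 12.19, 11.92 and 12.27 in AS17, against 12.11, 11.05 and 10.27 in AS5 and 12.36, 12.40 and 12.34 in WT. AS5 pools 2 and 3 were the low ones, and the difference of 0.98 (-0.05 to 2.01) was 0.52 without AS17 pool 1 and AS5 pool 3. The cell wall invertase lin5 gave 1.02 (-0.06 to 2.103), with 2 AS17 pools and 1 AS5 pool above background, and 0.61 without AS17 pool 2.

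Among the remaining named genes that were furthest apart without overlap, 3 were lower in AS17. Asc-1, which gives resistance to Alternaria stem canker, had 2.29, 2.43 and 1.64 in AS17 and 2.86, 2.56 and 3.90 in AS5. Its level was near background, with 2 of 3 AS17 pools above it. The Asc-1 difference of -0.99 (-1.90 to -0.08) was -0.68 without AS17 pool 1 and AS5 pool 3 and -0.59 without AS5 pool 3 alone. LOC543815 had 7.49, 6.88 and 7.22 in AS17, against 8.20, 7.87 and 8.30 in AS5 and 8.39, 7.73 and 9.11 in WT, a difference of -0.93 (-1.41 to -0.45). CDPK1, a calcium-dependent protein kinase, had 5.43, 5.26 and 4.98 in AS17 and 5.995, 5.50 and 6.04 in AS5, a difference of -0.62 (-1.10 to -0.14).

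**Figure D4:**
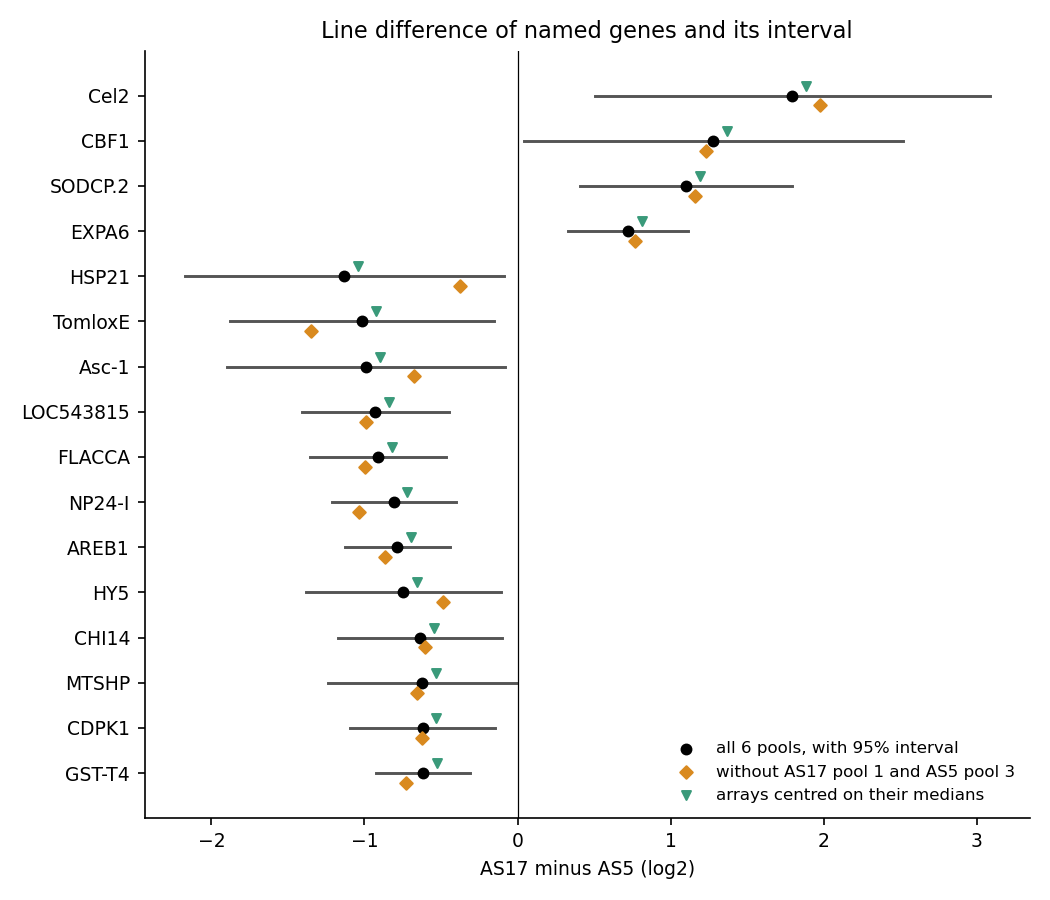
AS17 minus AS5 log2 difference of 16 named genes (black points) with its 95% interval (lines), the difference without AS17 pool 1 and AS5 pool 3 (diamonds) and with arrays centred on their medians (triangles). The difference of HSP21 is -1.13, and -0.38 without the 2 pools, while FLACCA, AREB1 and SODCP.2 stay close to their values.

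The smallest p-values belonged to 2 probe sets that carried no gene name. The first had 6.76, 6.50 and 6.48 in AS17, against 7.79, 7.73 and 7.96 in AS5 and 8.68, 8.98 and 8.65 in WT. Its pools separated into 3 levels, and the difference was -1.25 (-1.58 to -0.91, limma adjusted p = 0.313). The second had 2.91, 3.18 and 3.20 in AS17, against 5.21, 4.95 and 4.51 in AS5 and 4.18, 4.83 and 4.24 in WT. In this case AS17 stood below both AS5 and WT, with a difference of -1.79 (-2.27 to -1.31, limma adjusted p = 0.313). The 10 probe sets with the smallest p were all lower in AS17. Toward AS17, the 2 unnamed probe sets furthest apart without overlap gave 1.17 (0.02 to 2.32), or 0.61 without AS17 pool 2, and 1.00 (0.14 to 1.87), or 0.66 without AS5 pool 2.

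Markers of other fruit tissues gave no line difference past the adjusted test. The epidermis list had 3 genes with 0 standing out at an unadjusted p under 0.05 and a median of 0.04. The vascular list had 7 genes with 1 higher, Cel2, which is also a cell wall gene, and a median of 0.00. The shares over all probe sets were 0.418% higher and 3.55% lower. The 1 seed gene was at background in both lines. Of 9 photosynthesis genes, 0 stood out, and the median was -0.12. PsbQ, a photosystem II subunit, had 6.88, 5.002 and 6.42 in AS17 and 4.63, 4.69 and 6.65 in AS5. CAB6A, a chlorophyll-binding protein, had 5.80, 4.34 and 6.22 in AS17 and 4.23, 3.88 and 5.98 in AS5. AS17 pools 1 and 3 and AS5 pool 3 were thus the high pools for both genes. Their differences were 0.78 for PsbQ (-0.85 to 2.40) and 0.76 for CAB6A (-0.85 to 2.37). Without AS17 pool 1 and AS5 pool 3 these differences were 1.05 and 1.22. With 1 pool left out, PsbQ ranged from 0.387 to 1.44 and CAB6A from 0.349 to 1.4.

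**Figure D5:**
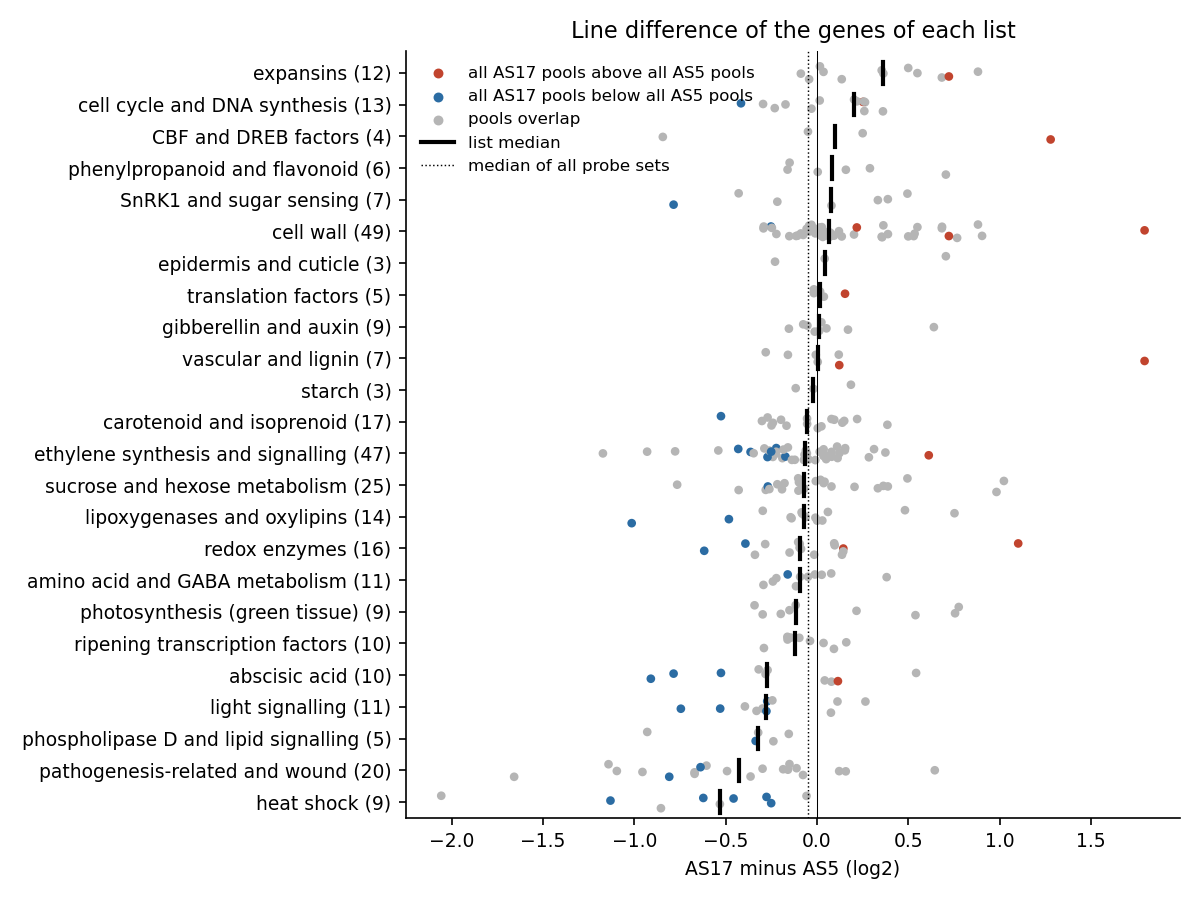
AS17 minus AS5 log2 difference of each gene (points) in the 24 lists with at least 3 genes, list sizes in brackets, black bars at list medians and a dotted line at the median of all probe sets. Heat shock genes lie lowest with a median of -0.53, and expansins highest with 0.36; red and blue points are genes whose pools do not overlap between the lines.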

How the data were processed

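Gene expression was measured on 9 Affymetrix tomato arrays, 1 per pool. The deposited values are log2 expression values made by the authors with RMA, per the submitters' processing notes. Version, settings and probe definitions of RMA stay unknown from those notes. The values, from 0.255 to 12.9, were used without further scaling. Of 10209 probe sets, 171 controls were left out. The 95th percentile of 63 reporter controls set each array's background. The number of arrays limits the precision.

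Only the 6 antisense arrays entered the model (limma 3.58.1, R 4.3.3, lmFit and eBayes; AS17 minus AS5; Benjamini-Hochberg over 10038 probe sets), and the code was tested on simulated data. Single-gene p-values and 95% intervals come from this fit, and every adjusted p not printed was 0.999. Gene names are those of GEO's annotation of the platform, which can be out of date: 909 probe sets had 1 symbol, 0 several and 9129 none, and 885 matched RefSeq (SLM_r2.1) by Entrez identifier. The probe set with the highest mean represented a gene.

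Named were up to 12 genes per direction with unadjusted p under 0.05, no overlap and the brighter line above background; the 10 smallest p-values; up to 4 genes of smallest p per list; up to 2 probe sets per direction without a name; and the 6 brightest genes with intervals inside 0.5. Of these, 112 in all, a part is described. ACO5, AO1, CHI17, CHI3, CRY2, DDB1, ER21, EXP5, HSC80, HSP17-6, HSP17.4, NCED1, NOR, Psy1, TAS14 and vis1 were added after their values were seen. The comparison and the gene lists were chosen with earlier results of these data known, and some lists were altered after the annotation was read. Alternatives covered scaling, filtering, variance models, array weights, WT arrays, replicate block and pools left out.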

Additional observations from a re-analysis of the deposited data

How the results depend on the processing

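The count of 0 probe sets past the adjusted threshold was the same in all 17 alternatives run. One of these was a threshold of 0.10, which was applied to the main fit only. All others kept the threshold of 0.05, and some of them held adjusted p-values under 0.10. The smallest adjusted p among genes of the naming rule was 0.0876, with array weights. The count with intervals inside a 2-fold change lay between 8000 and 8435 when 1 pool was left out, and was 608 of 802 with 1 probe set per named gene, which tests fewer features. Unadjusted calls were 63 higher and 528 lower in AS17 with WT arrays in the fit, 192 and 611 with array weights, 26 and 265 after the filter on dim probe sets, and 17 to 210 higher and 189 to 534 lower with 1 pool left out. Without AS17 pool 1 they were 210 higher and 534 lower, and without AS5 pool 3 they were 197 and 281.

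With pool number as a replicate block, 0 probe sets passed, 97 were higher and 310 lower at an unadjusted p under 0.05, and 8864 intervals lay inside a 2-fold change. Deviations of AS17 and AS5 pools with the same number correlated at -0.379, 0.546 and 0.0178 across probe sets, so the numbers were not taken to pair the pools.

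Of the 112 genes of the naming rule, 94 kept their direction in every alternative and 18 did not. With the genes added outside the rule, among them HSC80, Psy1, NCED1 and NOR, 106 of 128 kept it and 22 did not. The reversed values of described genes follow, and the cause was not tested. Under quantile normalisation 2A11 was -0.0248, PG2 -0.0245, SAHH -0.0373 and eIF-5A1 -0.0391. Under median centring HSC80 was 0.0316 and Psy1 0.0352. With array weights NCED1 was -0.0366 and PG2 -0.051. Without AS17 pool 1 and AS5 pool 3, NCED1 was -0.116, NOR 0.104 and PG2 -0.0637. With 1 pool left out, NCED1 ranged from -0.0287 to 0.195, NOR from -0.341 to 0.0707, PG2 from -0.0445 to 0.169, SAHH from -0.0345 to 0.111 and eIF-5A1 from -0.0667 to 0.115. Of the list medians, 3 moved by more than the spread between pools: starch to -0.289 without AS17 pool 1, cell cycle to 0.00993 without AS5 pool 1, and epidermis to 0.374 after the dim filter. Signal near background limits EXPA6, GST-T4, CBF1, ER5, Asc-1 and lin5.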

Other observations

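Other gene groups of ripe fruit lay near the overall median between the lines. At an unadjusted p under 0.05, 0.418% of all probe sets stood out higher in AS17 and 3.55% lower. Of 17 carotenoid and isoprenoid genes, 0 stood out higher and 1 lower, the 1 being ZEP, and the median difference was -0.05. Of 11 amino acid and GABA genes 0 stood out, with a median of -0.09, and of 9 gibberellin and auxin genes 0 stood out, with a median of 0.01. The 6 phenylpropanoid genes had a median of 0.08, the 5 translation factors 0.02 and the 3 starch genes -0.02, each with 0 standing out.

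Of 13 cell cycle genes, 0 stood out higher and 1 lower, beside 0.418% and 3.55% of all probe sets. Among them 8 had higher means in AS17, beside 3925 of all 10038 probe sets, and the median was 0.20. The 7 genes of sugar sensing through SnRK1 gave 0 higher and 1 lower with a median of 0.08, and the 1 was AREB1. The 2 water channels had a median of -0.33 and the 2 glycoalkaloid genes a median of -0.13, with 0 standing out in either pair.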
